A study of Mus musculus with 2 samples.

Results

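The genes described here are 10 members of the Notch pathway, out of 27998 genes listed in the counts: the receptors Notch1, Notch2, Notch3 and Notch4, the ligands Dll4 and Jag1, and the transcriptional targets Hes1, Hey1, Hey2 and Heyl. They were named as a pathway, with no threshold on measured values, and all 10 were found by symbol and had UMIs in both libraries. A further 61 genes that act around the receptors served as a wider Notch list. The study profiled single cells of the abdominal aorta in a mouse model of Kawasaki disease, a vasculitis of children. Wild-type C57BL/6J mice received Lactobacillus casei cell wall extract (LCWE), which inflames the coronary arteries and the abdominal aorta, or phosphate-buffered saline (PBS). The tissue was taken 2 weeks later, digested with enzymes and depleted of dead cells before 3′ droplet sequencing. Each group is 1 library, pooled from 7 aortas for LCWE and from 9 for PBS, so animals cannot be told apart and no difference between the groups has a replicate check. No test was therefore possible, and all 95% intervals, given in parentheses, cover counting error only.

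Notch receptors are cleaved after a ligand of the Delta or Jagged family on a neighbouring cell pulls on them. ADAM proteases cut first and the gamma-secretase complex next, and the freed intracellular domain joins the DNA-binding protein RBPJ to switch on genes such as the Hes and Hey repressors. In arteries, Notch3 marks smooth muscle cells and pericytes, Notch1, Notch4 and Dll4 mark the endothelium, and Jag1 is made by endothelium and smooth muscle alike.

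The authors sorted the cells into 25 classes. Those compared here were vascular smooth muscle cells (VSMC, 4141 PBS and 93 LCWE cells), transitional cells (283 cells, all LCWE), fibroblasts (868 and 813), and blood endothelial cells (BEC, 217 and 239). The deposited labels are VSMC_1 for the class called VSMC here and VSMC_2 for the transitional cells. The reading of VSMC_2 as transitional between smooth muscle and fibroblast was checked only against marker genes. Lymphatic endothelial cells (LEC, 29 and 88) are added where they hold much of a gene. Each captured transcript carries a unique molecular identifier (UMI) and is counted once. A level is the UMI number of a gene per 1000000 UMIs of its class (CPM), and levels are compared between classes or libraries within a gene only. The total was 62600808 UMIs over 5386 PBS cells and 42275754 UMIs over 5091 LCWE cells, and 8 cell barcodes occurred in both libraries. The class names used here were set against marker genes. The summed level of 7 smooth muscle markers was 46938 CPM in PBS VSMC, 39853 CPM in LCWE VSMC and 12022 CPM in transitional cells. The 7 fibroblast markers reached 63872, 43478 and 29956 CPM in PBS fibroblasts, LCWE fibroblasts and transitional cells. The 7 BEC markers reached 7686 CPM in PBS BEC and 6395 CPM in LCWE BEC. The 15 leukocyte markers were higher in the LCWE library in every class compared, at 8.53 and 1478 CPM (PBS, then LCWE) in VSMC, 12.3 and 1187 CPM in fibroblasts, and 133 and 1701 CPM in BEC. A list of 17 genes induced by tissue dissociation moved the other way in fibroblasts (25655 and 14295 CPM) and BEC (14835 and 9059 CPM), and less so in VSMC (13999 and 12903 CPM).

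Promoters are shown for 1 gene of each role that differed between the libraries and is in the promoter table: Hey2 as a target gene, Dll4 as a ligand and Notch3 as a receptor. RefSeq promoters (GRCm38.p6) were matched for 7 of the 10 genes, not for Hes1, Hey1 and Heyl. Each line gives 260 bases, 5′ to 3′ on the strand of the gene, of which the last 10 follow the RefSeq start site, and capitals mark the RBPJ core TGGGAA on either strand.
Hey2, chr10:30842774-30843033, minus strand: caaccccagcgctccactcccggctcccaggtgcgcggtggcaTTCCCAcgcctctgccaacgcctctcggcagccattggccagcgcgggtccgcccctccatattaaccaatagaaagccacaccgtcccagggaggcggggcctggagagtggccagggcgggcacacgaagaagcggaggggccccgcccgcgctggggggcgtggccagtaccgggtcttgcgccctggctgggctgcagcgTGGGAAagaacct
Dll4, chr2:119325534-119325793, plus strand: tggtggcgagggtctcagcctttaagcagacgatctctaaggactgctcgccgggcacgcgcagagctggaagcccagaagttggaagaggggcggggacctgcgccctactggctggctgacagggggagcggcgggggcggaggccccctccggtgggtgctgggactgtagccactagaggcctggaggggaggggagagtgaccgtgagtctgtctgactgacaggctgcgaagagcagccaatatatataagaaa
Notch3, chr17:32166881-32167140, minus strand: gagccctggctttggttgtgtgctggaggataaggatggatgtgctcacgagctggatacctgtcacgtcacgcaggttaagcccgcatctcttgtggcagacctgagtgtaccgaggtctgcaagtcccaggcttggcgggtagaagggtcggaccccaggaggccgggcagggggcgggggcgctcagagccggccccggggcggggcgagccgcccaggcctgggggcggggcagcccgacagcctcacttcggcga
The Notch3 window lies wholly upstream of the GENCODE span of the gene given below, so its RefSeq start differs from the GENCODE start. In the full table window of 300 bases, of which 250 precede the start site, the Hey2 promoter held TGGGAA at bases 248 to 253 and its reverse complement at bases 44 to 49. The other 6 promoters held no such letters in this window. TGGGAA on either strand was found in 25.6% of 32851 mouse promoters of that length and at 2 or more places in 3.79%. The binding word of many Hes and Hey proteins, CACGCG, was found on either strand in the promoters of Dll4 (bases 56 to 61), Notch2 (bases 209 to 214) and Jag1 (bases 2 to 7 and 80 to 85), against 9.27% of all promoters. The E box CACGTG, its own reverse complement, was found in none of the 7 promoters and in 7.15% of all. These matches are letters in a window and were not read as binding sites.

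The pathway divided in part along cell types. Smooth muscle cells had Notch3, Heyl and Hey2, and blood endothelium had Notch1, Notch4, Dll4, Jag1 and Hey2. Lymphatic endothelium had the highest levels of Hes1 and Notch1 among groups of at least 50 cells. Heyl was also at 122 CPM in the PBS cells of fibroblast subcluster 3, and PBS LEC held 57.4% of the Dll4 UMIs of their library. Between the libraries, Notch3 was higher in LCWE smooth muscle cells, Heyl, Hey1 and Hey2 were lower in LCWE fibroblasts, and Dll4 and Hey1 were higher in LCWE blood endothelium, where Hey2 was lower by a little over 2-fold. In fibroblasts and BEC most cells of the libraries lay in different subclusters, described below. VSMC were also spread unlike between the libraries, with 46 of 93 LCWE but 280 of 4141 PBS cells in subcluster 6. The VSMC subclusters with at least 10 cells of both libraries held 79 LCWE and 1135 PBS cells. The plot of levels by vascular class shows all 10 genes with their counting intervals.

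**Figure D1:**
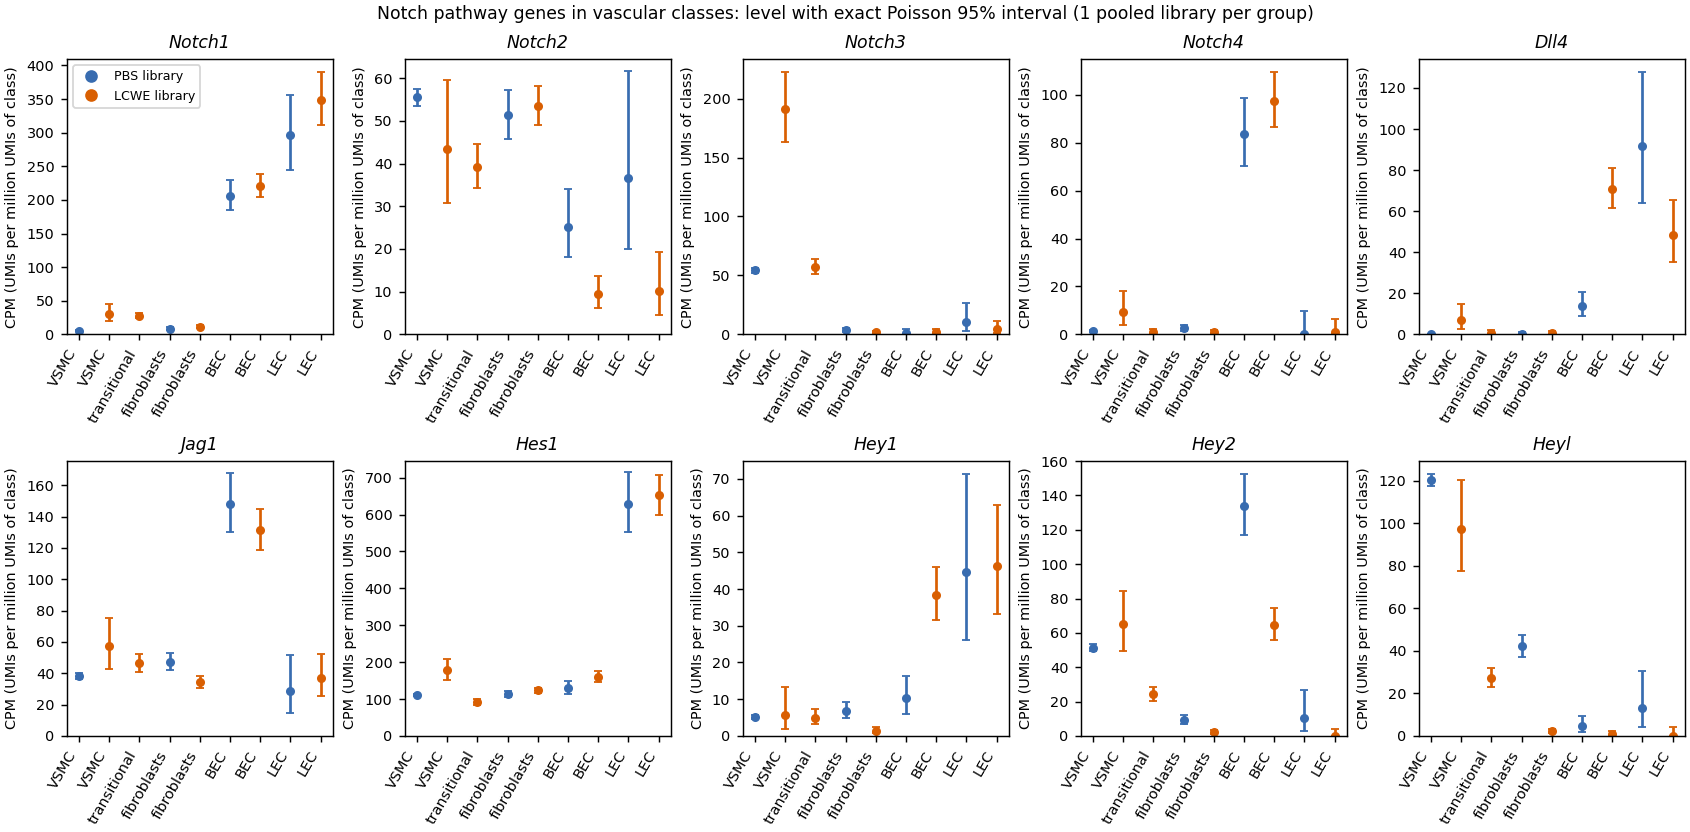
Level of each of the 10 genes in VSMC, transitional cells, fibroblasts, BEC and LEC, in CPM (vertical axis, linear, a separate scale per gene), with points for the PBS library (blue) and the LCWE library (orange) and bars for the exact Poisson 95% interval. Notch3 is highest in LCWE VSMC at 191 CPM, Heyl in PBS VSMC at 120.3 CPM, and Dll4 stands at 13.8 CPM in PBS BEC and 70.97 CPM in LCWE BEC.

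Notch3 (chr17:32120820-32166852 in GENCODE, GRCm38), the receptor of mural cells, was found at 54.3 CPM from 2901 UMIs in PBS VSMC, at 191 CPM from 167 UMIs in LCWE VSMC and at 57.5 CPM from 333 UMIs in transitional cells. Fibroblasts had 3.45 and 2.10 CPM (PBS, then LCWE), each from 21 UMIs, and BEC had 2 and 7 UMIs. VSMC held 98.8% (98.4% to 99.2%) of all Notch3 UMIs of the PBS library, where they were 76.9% of the cells. Of the LCWE library's Notch3 UMIs, transitional cells held 55.97% (51.9% to 60.001%) and VSMC 28.1% (24.5% to 31.9%), from 5.56% and 1.83% of its cells. The level in VSMC was 3.52-fold (2.995 to 4.12) higher in the LCWE library. Within that library it was 3.32-fold (2.74 to 4.01) higher in VSMC than in transitional cells, which in turn exceeded fibroblasts 27.4-fold (17.6 to 44.8). Transitional cells and PBS VSMC did not differ beyond counting error. With every cell thinned to 2000 UMIs, 10.8% (9.89% to 11.8%) of PBS VSMC, 26.1% (17.5% to 36.3%) of LCWE VSMC and 9.54% (6.38% to 13.6%) of transitional cells had a Notch3 UMI, against 44.8%, 48.4% and 48.1% at full depth. At 2000 UMIs, T, NK and innate lymphoid cells gave 0% (0% to 4.80%) of 75 PBS cells and 0.321% (0.129% to 0.660%) of 2180 LCWE cells. Fibroblasts gave 0.698% and 0.372% (PBS, then LCWE), within these intervals. The PBS interval is too wide to tell a low level from background, and whether the fibroblast UMIs are background was not tested.

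The higher Notch3 level of LCWE VSMC sat in 1 subcluster. The cells of each class were clustered over both libraries without the 10 genes and without the wider list. VSMC subcluster 6, led by Ren1 (renin), Nrip2, Olfr558 and Acta1, held 280 of 4141 PBS VSMC and 46 of 93 LCWE VSMC. It carried 153 of the 167 Notch3 UMIs of LCWE VSMC, at 340.2 CPM, and its PBS cells had 107 CPM, above the 29.2 to 58.2 CPM of PBS subclusters 1 to 5. Between the libraries the level within subcluster 6 was 3.18-fold (2.62 to 3.83) higher in LCWE. In subcluster 3, the other subcluster of smooth muscle genes with at least 10 LCWE cells, it was 54.1 CPM in PBS and 45.7 CPM from 5 UMIs in LCWE, a ratio of 0.844 (0.273 to 1.98). Subcluster 6 thus had the highest Notch3 level in both libraries, and its leukocyte markers were at 3.67 CPM in PBS and 213 CPM in LCWE. Any leukocyte marker UMI was found in 72 of 93 LCWE and 295 of 4141 PBS VSMC. Without these cells the log2 ratio over the class was 2.26, from 43 LCWE Notch3 UMIs, against 1.82 with them. The part of leukocyte transcripts in the Notch3 difference was not tested.

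Notch1 (chr2:26457903-26516663), the receptor needed for arterial fate, was at 206 CPM from 344 UMIs in PBS BEC, 221 CPM from 656 UMIs in LCWE BEC and 349 CPM from 309 UMIs in LCWE LEC. The libraries differed by 1.07-fold (0.936 to 1.22) in BEC, within counting error. Leukocyte classes of at least 50 cells had Notch1 too, led by neutrophils at 106 CPM from 58 UMIs. VSMC had 5.12 CPM from 274 UMIs in PBS and 30.9 CPM from 27 UMIs in LCWE, a 6.03-fold (3.90 to 8.97) difference. Of those 27 UMIs, 17 came from the 19 LCWE cells of VSMC subcluster 7, which was led by leukocyte genes such as Ptprc and had 7171 CPM of leukocyte markers, and 1 cell gave 33.3% of them. Without that subcluster the log2 ratio was 1.44 instead of 2.59, and without the 72 of 93 LCWE cells that had any leukocyte marker UMI only 1 Notch1 UMI remained. Transitional cells had 27.8 CPM from 161 UMIs, 2.55-fold (1.99 to 3.28) the fibroblast level of 10.9 CPM. Their leukocyte markers stood at 698 CPM, and the part of these in the Notch1 level was not tested.

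Notch4 (chr17:34564268-34588503), a receptor of endothelium, was at 83.4 CPM from 139 UMIs in PBS BEC and 97.5 CPM from 290 UMIs in LCWE BEC, 1.17-fold (0.952 to 1.44) apart. BEC held 61.2% (54.6% to 67.6%) of its UMIs in PBS and 74.9% (70.3% to 79.2%) in LCWE. LEC had 0 UMIs in PBS and 1 in LCWE, so the gene separated blood from lymphatic endothelium. In VSMC the level was 1.29 CPM from 69 UMIs in PBS and 9.15 CPM from 8 UMIs in LCWE, nominally 7.09-fold (2.95 to 14.8) higher. That value rests on 1 cell, which held 87.5% of the 8 UMIs, and 7 of them were in the leukocyte-led subcluster 7, where BEC markers were at 675 CPM over both libraries. As a mean of the cells' own CPM the log2 ratio was 0.65 instead of 2.83. All 6 Dll4 UMIs of LCWE VSMC were in that subcluster as well, and BEC markers over all VSMC were at 26.5 CPM in PBS and 270.1 CPM in LCWE. In fibroblasts Notch4 was 2.73-fold (1.12 to 7.09) lower in LCWE, from 15 PBS and 9 LCWE UMIs.

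Notch2 (chr3:98013527-98150361), the broadest of the receptors, was at 55.5 CPM from 2967 UMIs in PBS VSMC, 43.5 CPM from 38 UMIs in LCWE VSMC, 39.2 CPM from 227 UMIs in transitional cells, and 51.3 and 53.4 CPM in PBS and LCWE fibroblasts. The libraries differed by 0.784-fold (0.553 to 1.08) in VSMC and 1.04-fold (0.904 to 1.20) in fibroblasts, within counting error in both. BEC had less, with 25.2 CPM from 42 UMIs in PBS and 9.42 CPM from 28 UMIs in LCWE, a 2.68-fold (1.62 to 4.48) lower level in LCWE. Only BEC subclusters 1 and 2, described below, had at least 10 cells of both libraries. The ratio of LCWE to PBS was 0.752 (0.0183 to 4.58) in subcluster 1, from 1 LCWE and 26 PBS UMIs. In subcluster 2 it was 1.28 (0.172 to 57.0), from 8 LCWE UMIs and 1 PBS UMI, and both intervals include no difference. Eosinophils of the LCWE library had the highest level of the gene, 120.2 CPM from 82 UMIs.

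Dll4 (chr2:119325784-119335962), the Delta ligand of arterial and sprouting endothelium, was at 13.8 CPM from 23 UMIs in PBS BEC and 70.97 CPM from 211 UMIs in LCWE BEC, 5.14-fold (3.34 to 8.29) higher in LCWE. Thinned to 2000 UMIs, 2.82% (1.04% to 6.03%) of PBS BEC and 12.8% (8.78% to 17.7%) of LCWE BEC had a Dll4 UMI, and the shares at full depth were 9.22% and 33.5%, with median depths of 5846 and 10121 UMIs. T, NK and innate lymphoid cells gave 0% and 0.0459%. In LEC the order was the other way, 91.8 CPM from 35 UMIs in 29 PBS cells and 48.6 CPM from 43 UMIs in 88 LCWE cells. Smooth muscle markers in LEC stood at 6876 CPM in PBS and 337 CPM in LCWE, and the dissociation list at 21378 and 15068 CPM, and their part in the LEC difference was not tested. Fibroblasts and transitional cells had 2 to 8 UMIs per library, which allows at most 2.02 CPM. Without the 200 of 239 LCWE and 29 of 217 PBS BEC that had a leukocyte marker UMI, 13 LCWE Dll4 UMIs remained and the log2 ratio was 1.48 instead of 2.36, and counted per cell it was 3.06.

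The BEC of the 2 libraries shared few subclusters, so that within BEC the library and the subcluster can hardly be told apart. PBS cells were mainly in subcluster 1 (147 PBS and 10 LCWE cells) and in subcluster 4 (53 and 2), the latter led by stress genes such as Gdf15, Atf3 and Egr1. LCWE cells were in subcluster 2 (12 and 81), led by the arterial gene Sema3g, and in subcluster 3 (0 and 70), led by Apln with Angpt2 and Fst. They were also in subcluster 5 (1 and 46), led by Gpihbp1, Aplnr and Pcdh17, and in the leukocyte-led subcluster 6 (4 and 30). The 10 leading genes of subcluster 2 also included haemoglobin genes such as Hba-a2, and the leukocyte markers S100a8 and S100a9. Leukocyte markers were at 775 CPM in its LCWE cells and 0 CPM in its PBS cells, and their part in its levels was not tested. The Dll4 level was 13.6 and 14.3 CPM in PBS cells of subclusters 1 and 4, against 112, 67.8 and 93.8 CPM in LCWE cells of subclusters 2, 3 and 5. LCWE cells of the leukocyte-led subcluster 6 had 17.3 CPM from 9 UMIs, near the PBS values. Only subclusters 1 and 2 had at least 10 cells of both libraries. In subcluster 1 the LCWE cells had 1 Dll4 UMI, and in subcluster 2 1 PBS UMI stood against 65 LCWE UMIs, 10.8 against 112 CPM, a ratio of 10.4 (1.81 to 418).

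Jag1 (chr2:137081456-137116644), the Jagged ligand shared by endothelium and mural cells, was highest in BEC, at 148 CPM from 247 UMIs in PBS and 131 CPM from 390 UMIs in LCWE. VSMC had 38.3 CPM from 2047 UMIs and 57.2 CPM from 50 UMIs, transitional cells 46.5 CPM from 269 UMIs, and fibroblasts 47.2 CPM from 287 UMIs and 34.3 CPM from 342 UMIs (PBS, then LCWE). No class differed 2-fold between the libraries: the ratios of LCWE to PBS were 1.49 (1.11 to 1.98) in VSMC, 0.726 (0.619 to 0.853) in fibroblasts and 0.885 (0.752 to 1.04) in BEC. In BEC subcluster 2 the level was 334 CPM in PBS and 325 CPM in LCWE. Within fibroblast subcluster 3 it was 1.71-fold (1.07 to 2.64) higher in LCWE, although the class as a whole was lower.

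Heyl (chr4:123233556-123249875), a Hey-family repressor of mural cells, was at 120.3 CPM from 6433 UMIs in PBS VSMC and 97.3 CPM from 85 UMIs in LCWE VSMC, which did not differ beyond counting error, and at 27.1 CPM from 157 UMIs in transitional cells. Fibroblasts had 42.1 CPM from 256 UMIs in PBS and 2.10 CPM from 21 UMIs in LCWE, 20.004-fold (12.8 to 32.9) lower in LCWE. At 2000 UMIs per cell, 7.33% (5.68% to 9.29%) of PBS and 0.620% (0.202% to 1.44%) of LCWE fibroblasts had a Heyl UMI, and at full depth 15.9% and 2.09%. Smooth muscle markers moved with it in fibroblasts, 509.8 CPM in PBS and 84.3 CPM in LCWE, as they did in the pooled lymphoid classes (608 and 75.02 CPM), which do not make them. Those lymphoid cells had 1 Heyl UMI in PBS, which allows up to 13.7 CPM, below the 42.1 CPM of PBS fibroblasts. The dissociation list, 7 of whose 17 genes were at least 2-fold lower in LCWE fibroblasts, moved in the same direction, and the part of either list in the Heyl difference was not tested.

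Nearly all fibroblast Heyl was in subcluster 3, led by Lamc3, Dio2, Adamtsl2 and Col4a3, which held 251 PBS and 29 LCWE fibroblasts. It carried 228 of 256 PBS and 14 of 21 LCWE UMIs, at 122 and 67.005 CPM, so that within the subcluster the level was 1.83-fold (1.07 to 3.40) lower in LCWE. Smooth muscle markers of that subcluster over both libraries were at 495 CPM, against 562 CPM in fibroblast subcluster 4, where PBS Heyl was 11.1 CPM. LCWE fibroblasts were mostly in subclusters 2, 5 and 7, which held 287, 235 and 129 LCWE cells and at most 2 PBS cells each. Subcluster 7 was led by leukocyte genes such as Siglech and Cybb. In the LCWE cells of subclusters 2, 5 and 7 Heyl was at 0.295, 0.271 and 1.14 CPM. With the cells of all subclusters that had at least 10 cells of both libraries pooled, the log2 ratio was -1.44 instead of -4.32. Of these subclusters, the ratio of LCWE to PBS was 0.515 (0.0532 to 2.58) in subcluster 1 and 1.30 (0.0312 to 8.23) in subcluster 4, both from 1 or 2 LCWE UMIs and both including no difference, and subcluster 6 had 0 and 2 UMIs (LCWE, then PBS). Without the 663 of 813 LCWE fibroblasts that had a leukocyte marker UMI, 2 LCWE Heyl UMIs were left, against 245 in PBS.

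Hey2 (chr10:30832359-30842801), a repressor of arterial endothelium and smooth muscle, was at 51.3 CPM from 2742 UMIs in PBS VSMC, 65.2 CPM from 57 UMIs in LCWE VSMC and 24.4 CPM from 141 UMIs in transitional cells. BEC had 134 CPM from 223 UMIs in PBS and 64.6 CPM from 192 UMIs in LCWE, 2.07-fold (1.70 to 2.53) lower in LCWE. The share of BEC with a Hey2 UMI at 2000 UMIs was 25.4% (19.7% to 31.7%) in PBS and 11.1% (7.36% to 15.8%) in LCWE, against 56.7% and 42.7% at full depth. Subcluster 2 had 162 CPM in PBS and 114 CPM in LCWE, a ratio of 0.706 (0.399 to 1.33) that included no difference. Subcluster 1 had 0 UMIs in 10 LCWE cells against 106 UMIs in 147 PBS cells, which allows a ratio of at most 0.693. Subcluster 3 had 72.4 CPM, and subcluster 5 had 0 Hey2 UMIs in 46 cells, which allows at most 7.21 CPM. Counted per cell instead of per UMI total, the log2 ratio in BEC was -0.36 instead of -1.05, under 2-fold. With the cells of subclusters 1 and 2 pooled it was -0.33, a value that sets mainly PBS cells of subcluster 1 against LCWE cells of subcluster 2. In fibroblasts Hey2 was 9.20 CPM from 56 UMIs in PBS and 2.20 CPM from 22 UMIs in LCWE, 4.18-fold (2.51 to 7.18) lower. The ratio of LCWE to PBS was 0.294 (0.00652 to 2.29) in fibroblast subcluster 1 and 0.343 (0.00836 to 2.09) in subcluster 3. Each rests on 1 LCWE UMI and includes no difference. Subclusters 4 and 6, the others with at least 10 cells of both libraries, had 0 LCWE Hey2 UMIs.

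Hey1 (chr3:8663359-8667256), a Hey repressor of endothelium, was at 10.2 CPM from 17 UMIs in PBS BEC and 38.3 CPM from 114 UMIs in LCWE BEC, 3.76-fold (2.25 to 6.67) higher in LCWE. LEC had 44.6 and 46.3 CPM (PBS, then LCWE). The subcluster without Hey2, BEC subcluster 5, had the highest Hey1 level among BEC subclusters of at least 10 cells of a library, 89.9 CPM from 46 UMIs, with Hes1 at 287 CPM and Dll4 at 93.8 CPM. In LCWE cells its arterial marker list was at 1384 CPM, against 6555 CPM in subcluster 2. Its list of 6 venous genes was lower there too, at 1773 CPM against 2455 CPM. Hey1 and Hey2 thus differed in opposite directions between the libraries. Within BEC subcluster 2 the ratio of Hey1 was 2.25 (0.567 to 19.5), from 28 LCWE and 2 PBS UMIs, which includes no difference, and subcluster 1 had 0 and 4 UMIs. With the cells of both subclusters pooled the log2 ratio was 2.77 instead of 1.91. In fibroblasts Hey1 was at 6.90 CPM from 42 UMIs in PBS and 1.40 CPM from 14 UMIs in LCWE, 4.92-fold (2.64 to 9.76) lower. With the cells of all subclusters that had at least 10 cells of both libraries pooled, the log2 ratio of Hey1 in fibroblasts was -0.56 instead of -2.30. VSMC had 5.16 CPM from 276 UMIs in PBS and 5.72 CPM from 5 UMIs in LCWE, too few to compare closely (0.357 to 2.62-fold).

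Hes1 (chr16:30064384-30067796), the most widely expressed Notch target and one that other signals also induce, was at 109.7 CPM from 5866 UMIs in PBS VSMC, 179 CPM from 156 UMIs in LCWE VSMC and 92.1 CPM from 533 UMIs in transitional cells. Fibroblasts had 113 and 123 CPM, and BEC 130.3 and 161 CPM (PBS, then LCWE). The ratio of LCWE to PBS was 1.63 (1.38 to 1.91) in VSMC, 1.09 (0.992 to 1.20) in fibroblasts and 1.23 (1.05 to 1.46) in BEC, under 2-fold in all 3. VSMC subcluster 6, which had the highest Notch3 level, also had Hes1 at 131 CPM in PBS and 273 CPM in LCWE, 2.09-fold (1.70 to 2.55) higher, while its Heyl levels of 104 and 95.6 CPM did not differ beyond counting error. Across the first 5 VSMC subclusters of the PBS library Hes1 ranged from 57.8 CPM, where the dissociation list was at 8288 CPM, to 160.3 CPM, where it was at 20394 CPM. PBS BEC differed in the same way: the stress-led subcluster 4 had 219 CPM of Hes1 and 27706 CPM of the dissociation list, and subcluster 1 had 66.6 and 3287 CPM. The part of dissociation in the Hes1 levels was not tested.

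**Figure D2:**
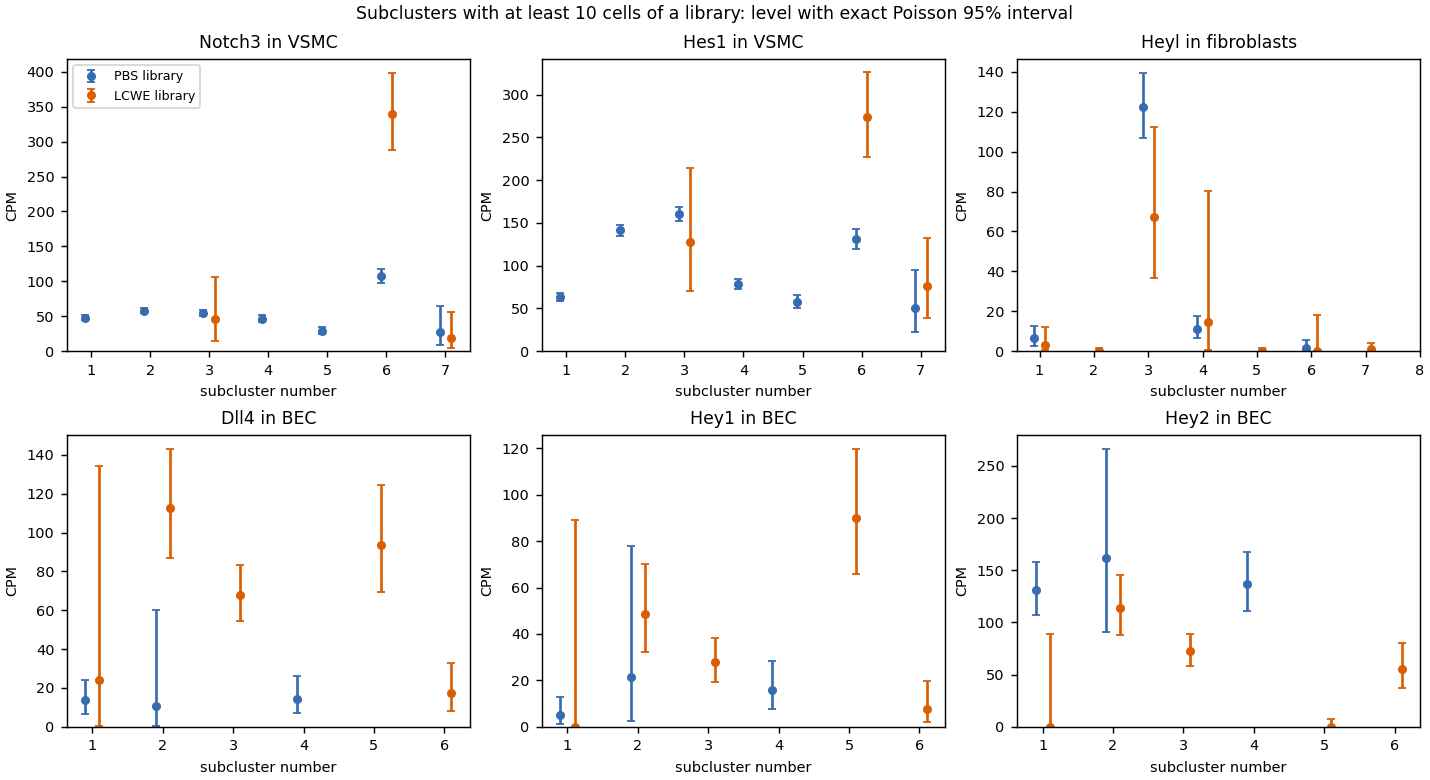
Levels of Notch3 and Hes1 in VSMC subclusters, Heyl in fibroblast subclusters, and Dll4, Hey1 and Hey2 in BEC subclusters, in CPM (vertical axis, linear) by subcluster number (horizontal axis), for PBS cells (blue) and LCWE cells (orange) where a library had at least 10 cells, with exact Poisson 95% intervals. VSMC subcluster 6 stands out for Notch3, fibroblast subcluster 3 for Heyl, and BEC subcluster 5 for high Hey1 at 89.9 CPM with no Hey2 UMI.

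Counted by a fixed rule, in which a gene is called when its levels differ at least 2-fold and both groups together have at least 20 UMIs, 3 of 9 members measured in VSMC were higher in LCWE (Notch1, Notch3 and Notch4) and 0 were lower. Over all genes measured in VSMC, 12.0% were higher and 4.17% lower. In LCWE VSMC, 17 of 27 Notch1 UMIs and 7 of 8 Notch4 UMIs came from the leukocyte-led subcluster 7. In fibroblasts 0 of 9 were higher and 4 lower (Notch4, Hey1, Hey2 and Heyl), beside 10.4% and 7.31% of all genes. In BEC 2 of 8 were higher (Dll4 and Hey1) and 2 lower (Notch2 and Hey2), beside 11.5% and 6.36%. Dll4 in VSMC and fibroblasts, and Notch3 and Heyl in BEC, had too few UMIs to be counted. The median log2 ratio of the measured members was 0.58 in VSMC, -0.71 in fibroblasts and 0.16 in BEC, and that of all genes 0.03, 0.04 and 0.06. The plot of ratios shows each measured ratio with its interval.

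**Figure D3:**
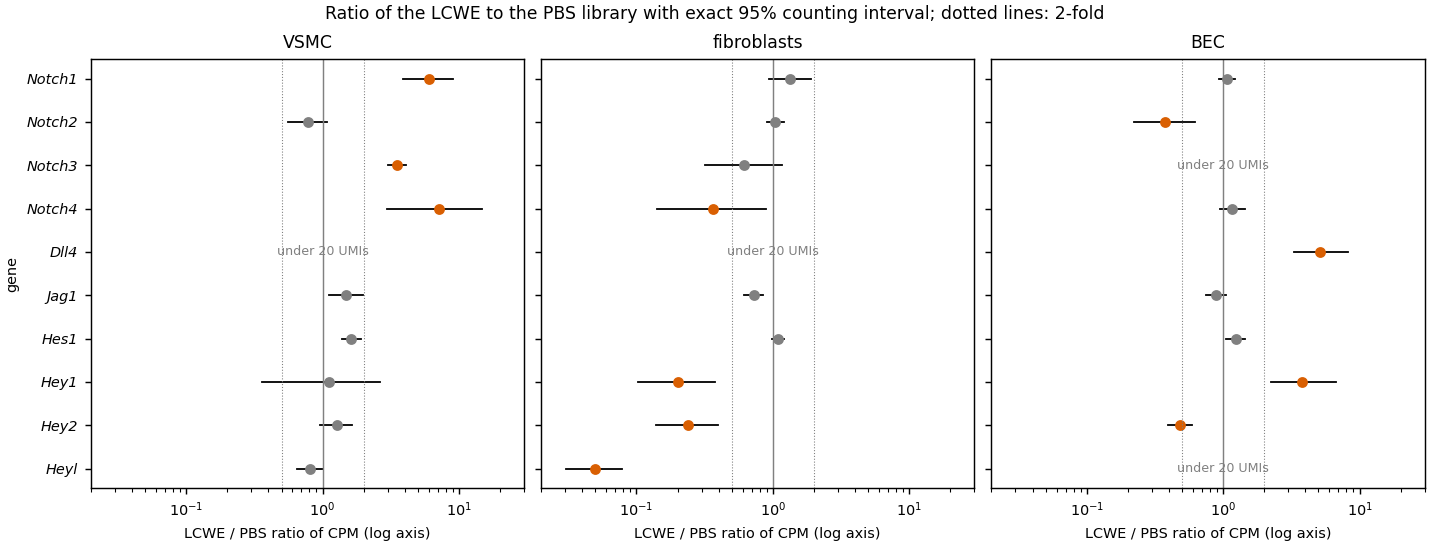
Ratio of the LCWE to the PBS level for each gene (rows) in VSMC, fibroblasts and BEC, on a logarithmic horizontal axis, with exact 95% counting intervals, orange where the ratio is at least 2-fold and dotted lines at 2-fold in either direction. Among the ratios shown, Heyl in fibroblasts lies farthest from equality, at 20.004-fold lower, and the gene and class pairs with fewer than 20 UMIs carry a note in place of a ratio.

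Between classes of the PBS library, 3 of 9 members measured had a level at least 2-fold above that of fibroblasts in VSMC, beside 13.9% of all genes, and 0 lower, beside 18.1%. VSMC exceeded fibroblasts in Notch3 15.7-fold (10.3 to 25.4), in Hey2 5.57-fold (4.28 to 7.40) and in Heyl 2.86-fold (2.52 to 3.25). Against BEC, VSMC had 3 of 10 members higher and 5 lower (background 13.6% and 19.3%). VSMC exceeded BEC in Notch2 2.20-fold (1.62 to 3.06), in Notch3 45.2-fold (12.5 to 373) against 2 UMIs in BEC, and in Heyl 25.1-fold (12.7 to 58.1). BEC exceeded VSMC in Notch1 40.3-fold (34.3 to 47.4), Notch4 64.7-fold (48.1 to 87.6), Jag1 3.87-fold (3.38 to 4.42) and Hey2 2.61-fold (2.27 to 2.99), and in Dll4 738-fold (119.9 to 30409) against 1 UMI in VSMC. Fibroblasts against BEC gave 2 higher and 5 lower of 10 (background 17.5% and 16.5%).

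Among LCWE classes taken whole, transitional cells lay between VSMC and fibroblasts for the mural genes. For VSMC this order rests largely on subcluster 6, with 46 of 93 LCWE cells. It held 153 of 167 Notch3, 44 of 57 Hey2, 123 of 156 Hes1 and 43 of 85 Heyl UMIs. In the 14 LCWE cells of VSMC subcluster 3, Notch3 was at 45.7 CPM from 5 UMIs, against 57.5 CPM in transitional cells. Hey2 was there at 36.5 CPM from 4 UMIs and Hes1 at 128 CPM from 14 UMIs. VSMC exceeded them in Notch3, in Hey2 2.68-fold (1.93 to 3.67) and in Heyl 3.58-fold (2.72 to 4.70), 3 of 8 members measured, with 0 lower (background 12.2% higher and 8.50% lower). Transitional cells in turn exceeded fibroblasts in 5 of 8 members (background 9.97%), with 0 lower (background 15.4%). These were Notch1 and Notch3, with values above, Hey1 by 3.57-fold (1.83 to 7.32), Hey2 by 11.1-fold (7.03 to 18.2) and Heyl by 12.9-fold (8.15 to 21.4). Hes1 was 1.94-fold (1.61 to 2.32) higher in VSMC than in transitional cells, just under the threshold, and Notch2 and Jag1 did not differ between these classes beyond counting error. VSMC exceeded fibroblasts in 4 of 7 members (background 14.4%), with 0 lower (background 14.3%). Against BEC, VSMC had 3 higher and 5 lower of 10 (background 10.9% and 18.5%), transitional cells 3 and 6 of 10 (11.6% and 17.1%), and fibroblasts 2 and 6 of 10 (15.5% and 16.6%). These comparisons share libraries and classes, so their counts are not independent of each other.

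Over the 24 groups of a class and a library with at least 50 cells, 3 of PBS and 21 of LCWE, the order of levels could be read only in part. Notch3 ran from LCWE VSMC to transitional cells and PBS VSMC, whose difference lay within counting error, and then dropped to 9.11 CPM from 5 UMIs in neutrophils. Notch4 was led by LCWE and PBS BEC, Jag1 by PBS and LCWE BEC, and Heyl by PBS and LCWE VSMC, each pair within counting error of each other and above the next group. Dll4 was ordered LCWE BEC, LCWE LEC and PBS BEC, each step beyond counting error. Hes1 was highest in LCWE LEC at 652 CPM from 577 UMIs, followed at a distance by NK cells (192 CPM), LCWE VSMC and LCWE BEC, each within counting error of the next. Hey1 was led by LCWE LEC and LCWE BEC, and Hey2 by PBS BEC, ahead of LCWE VSMC and LCWE BEC. The map of levels over all 24 groups shows Heyl and Hey2 dark in leukocyte classes, while Notch1, Notch2 and Hes1 had UMIs in all 24 groups.

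**Figure D4:**
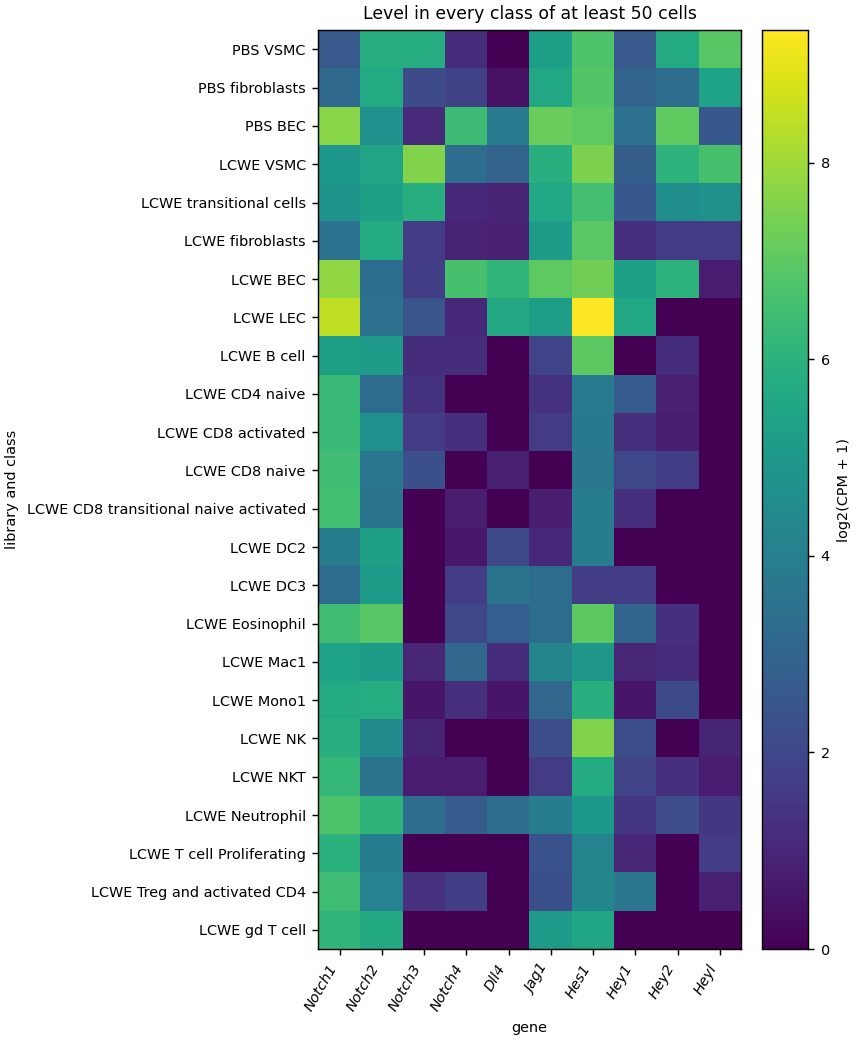
Level of the 10 genes (columns) in the 24 groups of at least 50 cells (rows, library and class), as log2(CPM + 1) by colour from dark (0) to yellow (highest). Notch3 and Heyl are bright in VSMC, Notch4 and Dll4 in BEC, and the brightest cell is Hes1 in LCWE LEC at 652 CPM before the log.

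The genes with the most similar pattern over these 24 groups, among 10553 others with at least 500 UMIs, are given with Pearson's r of log2(CPM + 1), as a description over groups that share 2 libraries. For the smooth muscle members they were Tpm2 (0.92), Myocd (0.92) and Rgs4 (0.91) for Notch3, Angpt4 (0.96), Epha7 (0.94) and Cacna1c (0.94) for Heyl and Shroom3 (0.94), Kank4 (0.93) and Lims2 (0.93) for Hey2. Tpm2 encodes a tropomyosin of the contractile apparatus and Myocd the coactivator of smooth muscle genes. For the endothelial members they were Sox17 (0.90), Sema3g (0.89) and Gja5 (0.88) for Notch4, Rasip1 (0.91), Kdr (0.89) and Emcn (0.88) for Dll4, S1pr1 (0.90), Prkd2 (0.85) and Icam2 (0.85) for Notch1 and Dock9 (0.83), Utrn (0.80) and Pik3r3 (0.80) for Hey1. Sox17, Sema3g and Gja5 are genes of arterial endothelium, and Kdr is a VEGF receptor. The broader members were closest to Wwc2 (0.93), Hoxa5 (0.92) and Selm (0.92) for Jag1, Zeb2 (0.79), Chp1 (0.79) and Rabgef1 (0.75) for Notch2 and Ulk2 (0.84), Snx13 (0.83) and Mgat1 (0.83) for Hes1. The lists depend on the measure: with Spearman's rho, 0 or 1 of the 3 genes of each list remained.

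The wider list of 61 ligands, sugar transferases, proteases, nuclear factors, corepressors, regulators and further targets gave mixed counts. In VSMC 9 of 50 measured genes were higher in LCWE and 1 lower, in fibroblasts 4 and 4 of 53, and in BEC 6 and 3 of 51, with the percentages of all genes as given for the members. Rbpj, the DNA-binding partner of all 4 receptors, was under 2-fold in each, at 35.5 against 42.3 CPM (LCWE against PBS) in VSMC, 112 against 87.1 CPM in fibroblasts and 42.4 against 31.8 CPM in BEC. Of the 8 nuclear factors, 1 was called in any of the 3 classes, Maml3 in BEC, from 28 and 5 UMIs. Over all genes, 12.0% were called higher and 4.17% lower in VSMC, 10.4% and 7.31% in fibroblasts, and 11.5% and 6.36% in BEC.

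In LCWE fibroblasts the protease gene Adam10 stood at 71.6 against 34.8 CPM (LCWE against PBS), 2.06-fold (1.76 to 2.41) higher, and Snai2, a repressor of epithelial genes, at 28.4 against 9.70 CPM, 2.93-fold (2.21 to 3.95) higher. Dner, a noncanonical ligand, was at 1.40 against 27.9 CPM, 19.9-fold (11.6 to 37.2) lower, and the corepressor Tle1 at 32.2 against 71.001 CPM, 2.21-fold (1.91 to 2.56) lower. In BEC the Delta ligand Dll1 was at 66.9 against 146 CPM, 2.18-fold (1.80 to 2.64) lower in LCWE, the opposite direction to Dll4. Aph1b, a subunit of gamma-secretase, was 2.49-fold (1.91 to 3.25) lower, Myc 2.47-fold (1.45 to 4.47) higher, and Snai1 12.05-fold (4.54 to 45.2) higher from 86 against 4 UMIs. In VSMC the naming rule gave only the corepressor Tle4, at 9.15 against 25.1 CPM, 2.74-fold (1.39 to 6.35) lower. The genes higher in LCWE VSMC had at most 26 UMIs there, among them Nrarp, a feedback inhibitor that Notch itself induces, with 26 UMIs at 29.8 CPM against 1.44 CPM in PBS, 20.7-fold (12.7 to 32.6), a gene picked after its value was seen. Of the further targets on the list, 5 of 8 measured in VSMC were higher in LCWE, beside 12.0% of all genes. They were Nrarp, Ccnd1, Gpr183, Myc and Snai1, each from 3 to 26 LCWE UMIs. Leukocyte and BEC markers were also higher in LCWE VSMC, and their part in these levels was not tested.

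Of 10 genes for proteases and gamma-secretase subunits that cleave Notch receptors, 6 were at least 2-fold higher in PBS BEC than in PBS VSMC beside 19.3% of all genes, and none lower. In LCWE 5 were higher in BEC, beside 18.5% of all genes. Adam10 was 15.4-fold (13.9 to 17.01) higher in PBS BEC than in PBS VSMC, Ncstn, a subunit of gamma-secretase, 4.63-fold (3.91 to 5.45) higher, and Adam17 3.25-fold (2.70 to 3.87) higher. Efnb2, the arterial ephrin and a Notch target, was at 199 CPM in PBS BEC, 74.01 CPM in PBS VSMC and 14.8 CPM in PBS fibroblasts. Rbpj was higher in fibroblasts than in VSMC in both libraries, 2.06-fold (1.87 to 2.27) in PBS and 3.16-fold (2.21 to 4.67) in LCWE, and 2.79-fold (2.42 to 3.23) higher than in transitional cells. Snai1, which promotes loss of epithelial and endothelial junctions, was at 59.97 CPM in transitional cells, 2.07-fold (1.63 to 2.66) above LCWE BEC, and at 3.43 CPM from 3 UMIs in LCWE VSMC. Mfng, a sugar transferase that tunes ligand choice, was at 132 CPM in LCWE BEC and 6.87 CPM in LCWE VSMC.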

How the data were processed

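The deposited values are UMI counts per gene and cell in a joint matrix and in 1 table per library, made with Cell Ranger 3.0.2 against the mouse genome mm10, per the submitters' processing notes. A deposited table gives each cell's class and library, the percent of mitochondrial UMIs per the file headers, and a doublet score that the authors computed and that was not used here. How the classes were assigned is not given in the sources used here. The single-library tables differed from the joint matrix in 0 of 293335046 entries. The authors' table called 0 of the 10477 cells dead or doublets, so no further cells were removed and no doublet caller was run.

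From these counts, UMIs were summed by class and library and divided by the UMI total of the class to give CPM, with exact Poisson intervals, exact conditional intervals for ratios and exact Clopper-Pearson intervals for shares, all at 95%. A gene was called when levels differed at least 2-fold with at least 20 UMIs in both groups together. A sum under 3 UMIs was raised to 3, and a gene whose order that would turn was left out of the count. Depth ran from 873909 UMIs in LCWE VSMC to 53468481 in PBS VSMC.

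Each class was clustered over both libraries with scanpy 1.11.5 (2000 variable genes without the members and the wider list, 20 principal components, 15 neighbours, Leiden resolution 0.5). The values were computed in Python 3.11.15 with numpy 2.4.6, pandas 2.3.3 and scipy 1.17.1, and drawn with matplotlib 3.10.9. Only the ratio intervals and the 2-fold calls were tested on simulated data, as class sums of genes with at least 50 expected UMIs. All 10 members were named, with the 3 genes most alike to each over the 24 groups of at least 50 cells. Wider list genes were named where they differed 2-fold with at least 50 UMIs in the higher group, at most 4 per comparison in order of UMIs. The members and lists were chosen with earlier results of these data known. Alternatives were counting per cell, averaging the cells' own CPM, leaving out cells over 10% mitochondrial UMIs or with a leukocyte marker UMI, thinning to 2000 UMIs, another total, and other UMI minimums. Leaving out leukocyte-led subclusters and keeping shared subclusters were added after seeing the data.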

Additional observations from a re-analysis of the deposited data

Results flagged for a closer look

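The ratio of LCWE to PBS differed in direction between cell classes for 2 genes. For Notch4, the log2 ratio was 2.83 in VSMC and -1.45 in fibroblasts, a difference of 4.28. It was met with 8 LCWE UMIs in VSMC, 7 of them in 1 cell, and 9 in fibroblasts. For Hey1, the log2 ratio was 1.91 in BEC and -2.30 in fibroblasts, a difference of 4.21, from 114 LCWE UMIs in BEC and 14 in fibroblasts. Each class and library is 1 pooled sample, so neither difference was tested.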

How the results depend on the processing

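Of 66 member ratios of at least 2-fold, 349 alternative values were computed, 0 reversed and 23 fell under 2-fold. The following log2 ratios of LCWE to PBS moved beyond their counting interval, and the cause was not tested. Counted per cell, Dll4 in BEC was 3.06 (2.36 as CPM), Hey2 in BEC -0.36 (-1.05), Hey2 in fibroblasts -1.25 (-2.06), Heyl in fibroblasts -3.51 (-4.32) and Notch3 in VSMC 1.36 (1.82). As means of the cells' own CPM, Heyl in fibroblasts was -3.40, Notch3 in VSMC 2.35 and Notch4 in VSMC 0.65 (2.83). Without cells with a leukocyte marker UMI, Dll4 in BEC was 1.48 and Notch3 in VSMC 2.26, and without cells over 10% mitochondrial UMIs Notch3 was 1.56. Thinned to 2000 UMIs, Hey2 in BEC was -1.43 and Notch3 in VSMC 2.33. Without the leukocyte-led subcluster, Notch1 in VSMC was 1.44 (2.59) and Notch3 2.08. With the cells of all shared subclusters pooled, which still hold different parts of each library, Hey1 was 2.77 in BEC (1.91) and -0.56 in fibroblasts (-2.30), Hey2 in BEC -0.33 and Heyl in fibroblasts -1.44. With at least 100 UMIs, the wider list had 0 genes higher in BEC instead of 6, 4 in VSMC instead of 9, and 2 higher and 2 lower in fibroblasts instead of 4 and 4, with fewer genes measured. No value was given where a group had under 3 UMIs, as for Notch1 and Notch4 in VSMC, Notch2 in BEC, and Notch4, Hey1, Hey2 and Heyl in fibroblasts without cells with a leukocyte marker UMI. Of LCWE cells 72 of 93 VSMC, 663 of 813 fibroblasts and 200 of 239 BEC had such a UMI. The 93 LCWE VSMC limit every VSMC ratio. No paired analysis was possible because each group is 1 pooled library and no result comes from a test.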

Other observations

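Lymphatic endothelium, outside the 4 classes compared, held much of Hes1, Notch1 and Dll4. Hes1 was at 629.6 CPM (552 to 715, 240 UMIs) in the 29 PBS LEC and 652 CPM (599.6 to 707, 577 UMIs) in the 88 LCWE LEC. Notch1 was at 296 CPM (244 to 356, 113 UMIs) and 349 CPM (311 to 390.2, 309 UMIs), above BEC of the same library in both. Dll4 was at 91.8 CPM (64.0 to 128, 35 UMIs) in PBS and 48.6 CPM (35.1 to 65.4, 43 UMIs) in LCWE, with the markers that moved beside it given above, and PBS LEC held 35 of the 61 Dll4 UMIs of the PBS library, 57.4% (44.1% to 70.0%). Hey2 was at 4 and 0 UMIs, so lymphatic endothelium had Hey1 and Hes1 with little or no Hey2.

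Among leukocytes of the LCWE library, plasmacytoid dendritic cells had Dll4 at 50.7 CPM (31.4 to 77.5, 21 UMIs), from 47 cells. The 7 BEC markers stood at 975 CPM in these cells, against 20.05 to 449 CPM in the other LCWE leukocyte classes, and their part in the Dll4 level was not tested. A small monocyte class, Mono2, had Hes1 at 528 CPM (377 to 719, 40 UMIs) from 22 cells, and NK cells had it at 192 CPM (166 to 220.4, 202 UMIs). The PBS library held 0 plasmacytoid dendritic cells, 0 Mono2 cells and 16 NK cells.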
